A study of Mus musculus with 6 samples.

Results

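The genes described here encode matrix metalloproteinases (MMPs), ADAM and ADAMTS proteases with the related ADAMTSL glycoproteins, and the tissue inhibitors of metalloproteinases (TIMPs). They were taken from the RNA-seq table of mouse cochlear ducts as all genes whose symbol begins with Mmp, Adam or Timp followed by a number, or with Adamts. Mmp9 and Mmp13 were left out of the group by rule. This gave 49 of the 14865 genes listed. By protein type they were 4 secreted MMPs, 7 membrane-anchored MMPs, 12 ADAMs, 17 ADAMTS proteases, 5 ADAMTSL genes and 4 TIMPs. The GENCODE M21 annotation names 81 protein-coding genes that fit the same rule, and those outside the table, such as Mmp3, Mmp8 and Adamts13, were not analysed here.

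RNA came from cochlear ducts at postnatal day 8 of mice of 2 genotypes, labelled C57BL/6, with the line kept on a C57BL/6J background by the study's methods. Gfi1+/+ mice carry both wild-type alleles of Gfi1, which encodes a zinc finger transcription factor of hair cells and blood cells. Gfi1cre/+ mice carry 1 wild-type allele and 1 allele in which Cre recombinase replaces part of the Gfi1 coding sequence, so Cre is made wherever the Gfi1 promoter is active. There were 3 libraries per genotype, each Gfi1+/+ library from the 2 cochleae of 1 mouse and each Gfi1cre/+ library from 6 cochleae pooled from 3 mice.

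MMPs, ADAMs and ADAMTS proteases cut proteins outside the cell with a zinc ion held in the catalytic site. MMPs degrade collagens and other matrix, ADAMs release the outer parts of membrane proteins such as growth factors and Notch, and ADAMTS proteases trim procollagens and the proteoglycans of cartilage and brain. TIMPs bind these enzymes and block them. A known exception to simple inhibition is TIMP2, which binds the membrane protease MMP14 and in that complex presents the inactive form of MMP2 for cleavage. The cochlear duct at this age is bordered by growing bone, cartilage remnants and mesenchyme, and holds matrix-rich structures such as the basilar and tectorial membranes.

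Values are normalized reads, which are reads counted on a gene divided by 1 size factor per library. Recovered reads ran from 13603908 to 19359753 per library, and the 49 genes took between 0.460% and 0.527% of them. Gfi1 itself had 147, 160.2 and 152 normalized reads in Gfi1+/+ and 136, 129.6 and 139 in Gfi1cre/+, and since the altered allele keeps part of the transcript, reads over the whole gene do not check the genotype labels. The tissue label was checked against marker genes. All 7 hair cell, all 5 supporting cell, all 5 stria and all 4 otic mesenchyme markers were listed, with summed levels whose genotype ranges overlapped. For stria the overlap was narrow, with 28244 to 29882 normalized reads in Gfi1+/+ and 29512 to 31568 in Gfi1cre/+. Kcne1 and Kcnq1 had every Gfi1cre/+ library above every Gfi1+/+ library, against 3.45% of all genes tested, and the rest of the stria markers overlapped. All 7 bone and cartilage markers were listed too, summed at 399540 to 517643 normalized reads in Gfi1+/+ and 472792 to 497936 in Gfi1cre/+. Col2a1 alone had 274391 to 375917 in Gfi1+/+ and 328077 to 350492 in Gfi1cre/+, so the sum mostly follows this gene. Ibsp had 6090 to 24660 in Gfi1+/+ and 15281 to 18658 in Gfi1cre/+. It was lowest in Gfi1+/+ replicate 2, where Acp5, at 2546, was highest. The part of bone and cartilage in the levels given below was not tested. Skeletal muscle was nearly absent, with 1 of 4 markers listed and at most 26.4 normalized reads. Gfi1+/+ replicate 1 stood apart from the other libraries, with -44.0 on the first principal component against -0.304 to 16.2 for the others. Its 6 neuron markers summed to 8733 normalized reads, against 3217 and 2064 in Gfi1+/+ replicates 2 and 3 and 1609 to 2378 in Gfi1cre/+. In the limma comparison described below, 4 of the 6 were lower in Gfi1cre/+ at an unadjusted p-value under 0.05, against 2.02% of all genes tested. At an adjusted p-value under 0.05 there were 0. The 4 Schwann cell markers summed to 31318 in Gfi1+/+ replicate 1, against 10888 to 19018 in the other 5 libraries. The oligodendrocyte gene Mobp, chosen after the values were seen, had 2235 normalized reads there and 4.19 to 27.0 elsewhere, and Mog had 232 and 0.00 to 3.55. Xist, transcribed from the inactive X chromosome, had 7338 to 8138 normalized reads in Gfi1+/+ and 2301 to 5359 in Gfi1cre/+, so sex and genotype cannot be told apart in any comparison here. In whole tissue, fewer cells of a type and less RNA per cell cannot be told apart either.

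The genes were not at all equal in level. To compare genes, the mean of the 6 libraries was divided by the length of the gene's exons in kilobases. On this scale the highest gene, Mmp2, stood 1760 times above the lowest, Mmp25. The median of the 49 genes was 60.9 normalized reads per kilobase, below the 106 of the 14796 listed genes with a known exon length. Of the 49, 6 were among the top 10% of listed genes and 11 among the bottom 10%. Mmp2, Timp2 and Mmp14, the genes of the known activation complex for MMP2, ranked 1, 2 and 3 and together held between 62.1% and 65.1% of the summed level per kilobase in each of the 6 libraries.

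**Figure D1:**
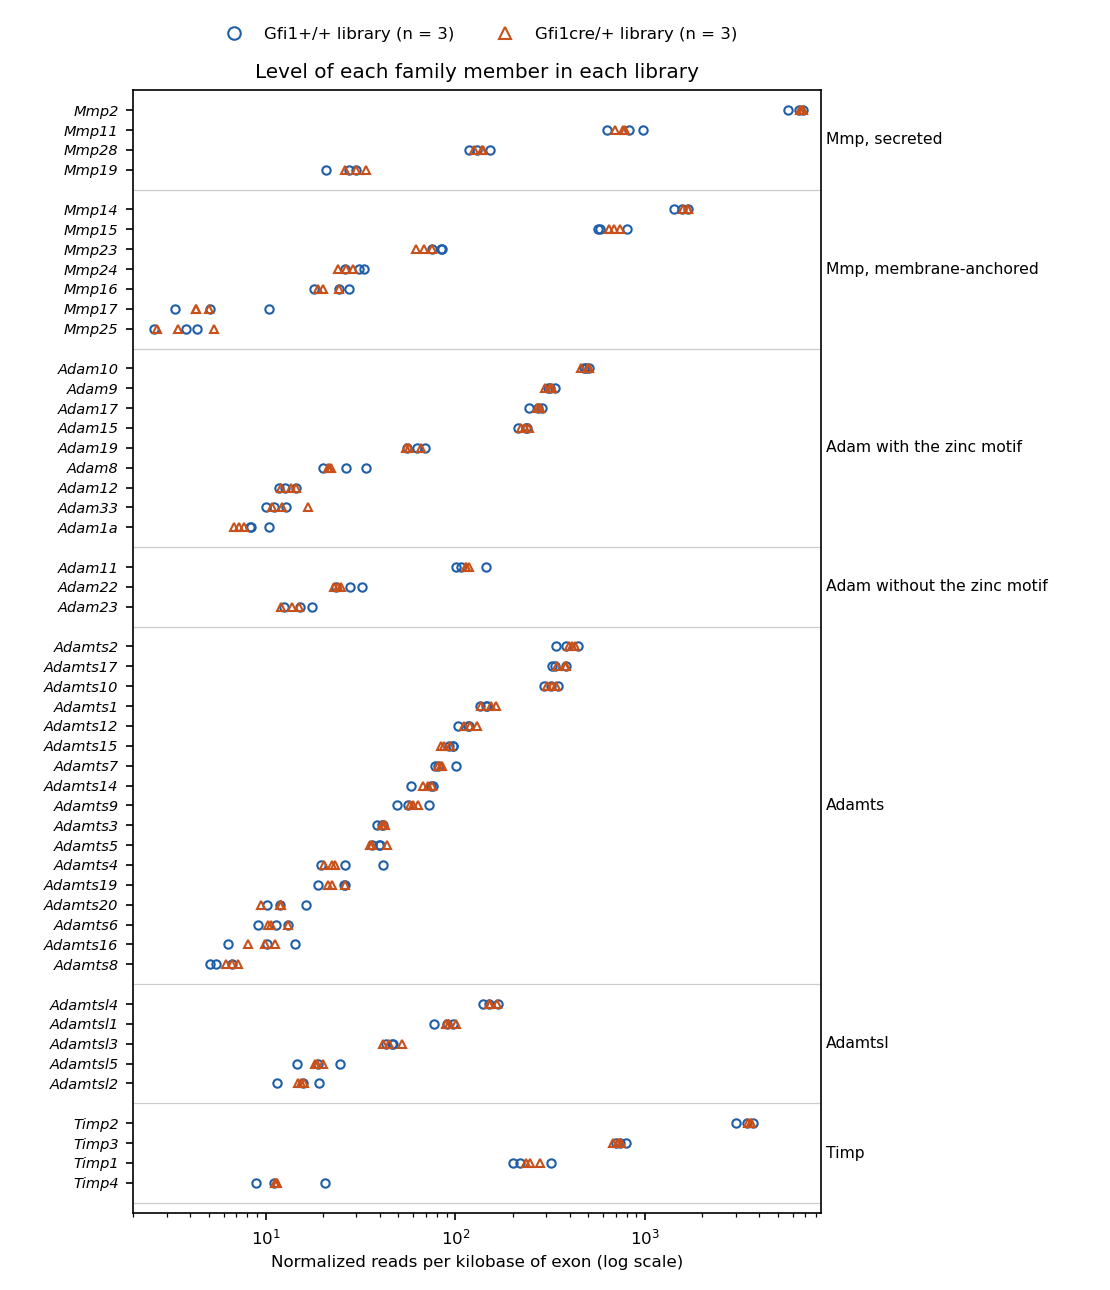
Normalized reads per kilobase of exon on a log axis for the 49 genes, by family, with 1 point per library (circles Gfi1+/+, triangles Gfi1cre/+, n = 3 each). Mmp2, Timp2 and Mmp14 lie to the right of all other genes in every library, and the genotypes intermingle for nearly all genes.

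The regions around the transcription starts of Timp2, Mmp14 and Adam10 are shown as examples of family leaders with GC boxes and no TATAAA. That of Adamts1 is shown as a contrast that holds both. Adamts2 and Adamtsl4, which also led their families, likewise hold a GC box and no TATAAA and are not shown. No region was given for the leaders Mmp2 and Adam11. RefSeq promoters of GRCm38.p6, from 250 bases before the start to 50 bases after it, were given for 31 of the 49 genes. They are written 5′ to 3′ on the strand of the gene, with matches to GGGCGG (a GC box, either strand) and to TATAAA (either strand) in capitals. The Timp2 window is chr11:118355362-118355661 on the minus strand, that of Mmp14 chr14:54431348-54431647 on the plus strand, that of Adam10 chr9:70678732-70679031 on the plus strand and that of Adamts1 chr16:85803064-85803363 on the minus strand.
Timp2: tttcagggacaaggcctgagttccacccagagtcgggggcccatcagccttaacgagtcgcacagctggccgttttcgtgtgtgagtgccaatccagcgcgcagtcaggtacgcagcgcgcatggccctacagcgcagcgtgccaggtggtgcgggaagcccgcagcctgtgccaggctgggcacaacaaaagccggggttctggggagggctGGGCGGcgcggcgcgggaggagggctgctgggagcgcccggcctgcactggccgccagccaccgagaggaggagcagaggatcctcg
Mmp14: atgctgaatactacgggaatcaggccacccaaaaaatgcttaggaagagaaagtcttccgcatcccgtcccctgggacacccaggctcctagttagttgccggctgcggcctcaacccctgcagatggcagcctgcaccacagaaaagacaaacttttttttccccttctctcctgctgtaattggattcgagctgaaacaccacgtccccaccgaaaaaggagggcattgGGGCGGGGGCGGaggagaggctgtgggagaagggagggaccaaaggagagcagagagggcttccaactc
Adam10: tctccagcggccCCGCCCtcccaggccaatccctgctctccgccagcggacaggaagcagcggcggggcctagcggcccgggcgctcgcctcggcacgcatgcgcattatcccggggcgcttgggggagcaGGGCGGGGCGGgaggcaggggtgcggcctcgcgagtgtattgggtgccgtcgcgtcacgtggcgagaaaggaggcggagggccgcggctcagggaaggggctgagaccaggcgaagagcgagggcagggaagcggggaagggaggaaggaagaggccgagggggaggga
Adamts1: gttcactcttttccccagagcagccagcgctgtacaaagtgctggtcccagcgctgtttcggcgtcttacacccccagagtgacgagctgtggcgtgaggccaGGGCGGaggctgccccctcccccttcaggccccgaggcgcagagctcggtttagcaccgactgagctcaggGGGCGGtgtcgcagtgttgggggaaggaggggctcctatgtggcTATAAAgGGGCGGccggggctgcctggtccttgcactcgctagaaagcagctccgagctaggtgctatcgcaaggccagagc
The Timp2 window held 1 GC box and 68.7% G and C, and the Mmp14 window 2 GC boxes that lie end to end and 56.0%. The Adam10 window held 3 GC boxes, 2 of them overlapping, and 73.3% G and C. The Adamts1 window held 3 GC boxes and 1 TATAAA, which starts upstream of the transcription start.

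Over the 34 windows of the 31 genes, GGGCGG was found in 25, or 73.5%, against 61.4% of the windows of all listed genes and 35.7% of all 32851 windows. TATAAA was found in 2 windows, those of Adamts1 and Adamtsl2, or 5.88% against 7.12% and 13.6%. TGANTCA, the letters bound by AP-1, was found in 1 window, that of Adam19, or 2.94% against 5.09% and 7.81%. AAATCA, which holds the AATC core of the GFI1 site, was found in 1 window, that of Adam8, or 2.94% against 8.52% and 14.0%. The median G and C content was 65.7% in the windows of the family and 60.7% in those of all listed genes. A match is a description of the letters and was not tested as a binding site.

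Among the secreted MMPs, Mmp2 (gelatinase A, which cleaves denatured collagen and basement membrane collagen, chr8:92827291-92853420 in GRCm38) had 19071, 23015 and 21833 normalized reads in the Gfi1+/+ libraries and 22001, 22785 and 22714 in the Gfi1cre/+ libraries, given here and throughout in the order of replicates 1 to 3. Gfi1+/+ replicate 1 was the lowest library and the genotypes overlapped. Per kilobase Mmp2 reached 6498 ± 434 (SD over 6 libraries), which put it above 99.2% of listed genes. Mmp11 (stromelysin 3, an MMP of stromal cells that furin activates inside the cell, chromosome 10) had 2275, 1749 and 2712 normalized reads in Gfi1+/+ and 2128, 1935 and 2182 in Gfi1cre/+. Both the highest and the lowest library for Mmp11 were Gfi1+/+ libraries. Mmp28 (epilysin) had 457, 500.5 and 588 normalized reads in Gfi1+/+ and 483, 537 and 543 in Gfi1cre/+. Mmp19 was the lowest of the secreted MMPs, with 97.5, 73.3 and 105 in Gfi1+/+ and 119, 106 and 92.5 in Gfi1cre/+. The annotation gives 22.3% of the exon bases of Mmp19 also to Tmem198b on the other strand.

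Of the membrane-anchored MMPs, Mmp14 (MT1-MMP, a collagenase on the cell surface and activator of MMP2, chromosome 14) had 8427, 9309 and 9974 normalized reads in Gfi1+/+ and 9392, 10066 and 10071 in Gfi1cre/+. As for Mmp2, Gfi1+/+ replicate 1 was lowest. Mmp15 (MT2-MMP) had 3053, 3130 and 4333 in Gfi1+/+ and 3462, 3682 and 3973 in Gfi1cre/+, with the Gfi1cre/+ libraries inside the range of Gfi1+/+. The members of the same branch fell far below these on the scale per kilobase, with 22.1 ± 3.74 for Mmp16 (MT3-MMP) and 28.2 ± 3.37 for Mmp24 (MT5-MMP), both known from the nervous system, against 1601 ± 108 for Mmp14 and 668 ± 91.7 for Mmp15 (SD over 6 libraries). Mmp24 had 154, 146 and 122 normalized reads in Gfi1+/+ and 112, 123 and 135 in Gfi1cre/+, with overlapping ranges. Mmp17 and Mmp25, which are held to the membrane by a lipid anchor, were the lowest of the MMPs at 5.40 ± 2.55 and 3.69 ± 1.06. Mmp25, a protease known from neutrophils, had 13.6 to 28.4 normalized reads and stayed below the minimum for testing.

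The TIMPs were spread over a wide range of levels. Timp2 (chromosome 11) had 11809, 13412 and 14397 normalized reads in Gfi1+/+ and 13560, 14140 and 14079 in Gfi1cre/+, and its level per kilobase was 3482 ± 241. Timp3 (chromosome 10), the TIMP that binds to the matrix and also inhibits ADAM17 and aggrecanases, had 5987, 6454 and 5723 in Gfi1+/+ and 5526, 6078 and 5847 in Gfi1cre/+, and 729 ± 39.3 per kilobase. Timp1 (chromosome X) had 195, 283 and 178 in Gfi1+/+ and 209, 219 and 247 in Gfi1cre/+, with the Gfi1cre/+ libraries inside the range of Gfi1+/+. Timp4 (chromosome 6) had 121, 52.4 and 65.4 in Gfi1+/+ and 67.9, 65.7 and 67.0 in Gfi1cre/+. Its highest and lowest libraries were both Gfi1+/+, and the 3 Gfi1cre/+ libraries were nearly equal.

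Timp1, Timp3 and Timp4 each lie inside a synapsin gene on the opposite strand, namely Syn1, Syn3 and Syn2. Exons shared with the host gene made up 0.00% of the exon bases of Timp1, 21.3% of those of Timp3 and 1.53% of those of Timp4. Syn2 had 309 normalized reads in Gfi1+/+ replicate 1 and 50.5 to 65.1 in the other libraries, and Timp4 was also highest in that library. Syn1 had 300 there and 38.3 to 69.1 elsewhere. Timp1, which lies inside Syn1, was not highest there, with 195 against 178 to 283 in the other libraries. Syn3 had 46.4 to 59.3 normalized reads. The sources used here do not give the strand setting of the counting.

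Proportions between the leading genes were compared library by library. The ratio of Timp2 to Mmp2 per kilobase lay between 0.504 and 0.571 in Gfi1+/+ and between 0.533 and 0.537 in Gfi1cre/+, and that of Mmp14 to Mmp2 between 0.229 and 0.258 and between 0.241 and 0.251. The ratio of Timp2 to Timp3 lay between 4.12 and 5.26 in Gfi1+/+ and between 4.86 and 5.13 in Gfi1cre/+. In each of these ratios the Gfi1cre/+ libraries lay inside the range of the Gfi1+/+ libraries. The secreted MMPs held 40.7% to 41.8% of the summed level per kilobase of the 49 genes, the TIMPs 24.6% to 25.1%, the membrane-anchored MMPs 12.6% to 14.0% and the ADAMTS proteases 9.85% to 10.3%.

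Further down the order, only some neighbours could be told apart by their 6 values. Of the 48 pairs of neighbours in the order of levels per kilobase, 9 had ranges that did not overlap over the 6 libraries. Mmp2 stood apart from Timp2, Timp2 from Mmp14, Mmp14 from Mmp11, Mmp15 from Adam10 and Adam10 from Adamts2. Mmp11 (779 ± 118), Timp3 (729 ± 39.3) and Mmp15 (668 ± 91.7) overlapped, and their order was not the same in all libraries.

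The ADAMs were divided by whether the zinc-binding motif of the catalytic site was found in the longest open reading frame of the gene, which 9 of 12 held. Those with the motif were led by Adam10, the main sheddase of Notch and cadherins, with 2386, 2346 and 2500 normalized reads in Gfi1+/+ and 2265, 2501 and 2450 in Gfi1cre/+. Adam17, which sheds tumour necrosis factor and ligands of the EGF receptor, had 1949, 2050 and 1747 in Gfi1+/+ and 1923, 1983 and 2001 in Gfi1cre/+. The ratio of Adam10 to Adam17 per kilobase was 1.67 to 2.08 over the 6 libraries. Adam9 had 1295, 1267 and 1383 normalized reads in Gfi1+/+ and 1218, 1332 and 1300.2 in Gfi1cre/+, and Adam15 had 1313, 1462 and 1444 in Gfi1+/+ and 1504, 1438 and 1366 in Gfi1cre/+. Adam9 and Adam15 lay close to these, with 316 ± 13.6 and 231 ± 11.3 normalized reads per kilobase (SD over 6 libraries), whereas Adam19, Adam8, Adam12, Adam33 and Adam1a lay between 8.11 and 60.9. The spread of Adam10 in Gfi1+/+ was small, with an SD of 0.0474 on the log2 scale over the Gfi1+/+ libraries.

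The 3 ADAMs without the motif, Adam11, Adam22 and Adam23, are known as neuronal adhesion proteins, of which ADAM22 and ADAM23 bind the secreted LGI proteins at synapses and nodes. Adam11 had 606, 570 and 822 normalized reads in Gfi1+/+ and 665, 643 and 645 in Gfi1cre/+. Adam22 had 459, 400 and 336 in Gfi1+/+ and 344, 328 and 359 in Gfi1cre/+, with Gfi1+/+ replicate 1 highest. Adam23 had 273, 314 and 224 in Gfi1+/+ and 216, 245 and 267 in Gfi1cre/+. Of their ligands, Lgi3 had 351, 123 and 84.4 in Gfi1+/+ and 100.1, 107 and 114 in Gfi1cre/+. Lgi4, a ligand made by Schwann cells, had 244 to 287 over all libraries. Lgi3 was highest in Gfi1+/+ replicate 1, but Lgi1, Lgi2 and Lgi4 were not. In that library Lgi1 had 83.9 normalized reads and Lgi2 had 86.4. Lgi1 was highest in Gfi1+/+ replicate 2, and Lgi2, at 179, in Gfi1+/+ replicate 3.

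Among the ADAMTS proteases, Adamts2, which removes the amino-terminal propeptide of fibrillar procollagens, was highest per kilobase at 399 ± 35.8 (SD over 6 libraries). It had 3164, 3569 and 4110 normalized reads in Gfi1+/+ and 3709, 3962 and 3852 in Gfi1cre/+. Its relatives in procollagen processing were lower, with Adamts14 at 70.5 ± 6.74 and Adamts3 at 41.0 ± 1.40 per kilobase. Adamts17 (356 ± 26.9) and Adamts10 (321 ± 20.9), both tied to fibrillin and to the growth of bone and eye in people, came next. Adamts17 had 2492, 2602 and 2954 normalized reads in Gfi1+/+ and 2651, 2956 and 2945 in Gfi1cre/+, and Adamts10 had 2409, 2633 and 2858 in Gfi1+/+ and 2799, 2681 and 2494 in Gfi1cre/+. In both, Gfi1+/+ replicate 1 was the lowest library.

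The proteases that cleave aggrecan and versican were led by Adamts1 at 147 ± 11.0 normalized reads per kilobase, followed by Adamts15 at 91.8 ± 5.44, Adamts9 at 59.9 ± 7.80, Adamts5 at 38.5 ± 3.03 and Adamts4 at 25.4 ± 8.12. Adamts1 had 718, 771 and 774 normalized reads in Gfi1+/+ and 722, 869 and 820 in Gfi1cre/+. Adamts1 and Adamts5 lie next to each other on chromosome 16, in the same direction and 53059 bases apart. Adamts15 and Adamts8 lie 20109 bases apart on chromosome 9 in opposite directions. Adamts8, at 23.5 to 32.8 normalized reads, was below the minimum for testing, whereas its neighbour Adamts15 had 869 to 1007.

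The ADAMTSL genes encode relatives of ADAMTS proteases that have no protease domain and bind fibrillin matrix. Adamtsl4 had 588, 632 and 708 normalized reads in Gfi1+/+ and 692, 642 and 632 in Gfi1cre/+, and Adamtsl1 had 983, 1232 and 1157 in Gfi1+/+ and 1133, 1280 and 1182 in Gfi1cre/+. Per kilobase they stood at 155 ± 10.5 and 91.0 ± 8.01, ahead of Adamtsl3 (45.9 ± 3.71), Adamtsl5 (19.2 ± 3.22) and Adamtsl2 (15.4 ± 2.44). Adamtsl3 had 360.4, 335 and 362 normalized reads in Gfi1+/+ and 347, 405 and 322 in Gfi1cre/+, and Adamtsl5 had 69.1, 89.0 and 116 in Gfi1+/+ and 87.9, 94.98 and 85.9 in Gfi1cre/+. In both genes the ranges of the genotypes overlapped.

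The genotypes were compared to ask whether replacement of 1 Gfi1 allele altered expression of these genes. None of the members differed between Gfi1cre/+ and Gfi1+/+ after adjustment. The comparison used limma on log2(normalized reads + 1) in the 14455 genes that reached 40 normalized reads in any library, two-sided, with Benjamini-Hochberg adjustment. Of the 49 genes, 47 passed this minimum and 0 had an adjusted p-value under 0.05, where the share of all genes tested was 0.0277%. At an unadjusted p-value under 0.05 there was 1 member of 47, Mmp23, against 3.04% of all genes tested. Mmp23 was lower in Gfi1cre/+, a direction taken by 2.02% of all genes tested, and 0 members passed in the higher direction, taken by 1.02%. edgeR's quasi-likelihood test and DESeq2 also gave 0 members after adjustment, and 1 and 0 at an unadjusted p-value under 0.05.

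Differences were small in both directions. Of the 47 genes, 25 had a positive and 22 a negative log2 difference, Gfi1cre/+ minus Gfi1+/+, with a median of 0.01 beside -0.0001 over all genes tested. The values ran from -0.33 for Adamts4 to 0.21 for Adam33, and 43 of 47 lay within 0.25 of 0. By family the median difference was 0.05 for the secreted MMPs, -0.16 for the membrane-anchored MMPs, -0.004 for the ADAMs with the zinc motif, -0.15 for the 3 ADAMs without it, 0.02 for the ADAMTS proteases, 0.02 for the ADAMTSL genes and 0.01 for the TIMPs.

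The precision of the test bounds what could have been missed. The 95% interval from limma lay within 0.5 of 0 on the log2 scale for 38 of 47 genes and within 1 for 46, the exception being Mmp17 (-1.18 to 0.56). For the abundant genes the intervals were narrow, from -0.10 to 0.27 for Mmp2, -0.10 to 0.26 for Timp2, -0.07 to 0.26 for Mmp14, -0.14 to 0.13 for Adam10 and -0.20 to 0.09 for Timp3. For Timp1 the interval ran from -0.30 to 0.43 and for Timp4 from -0.78 to 0.46.

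**Figure D2:**
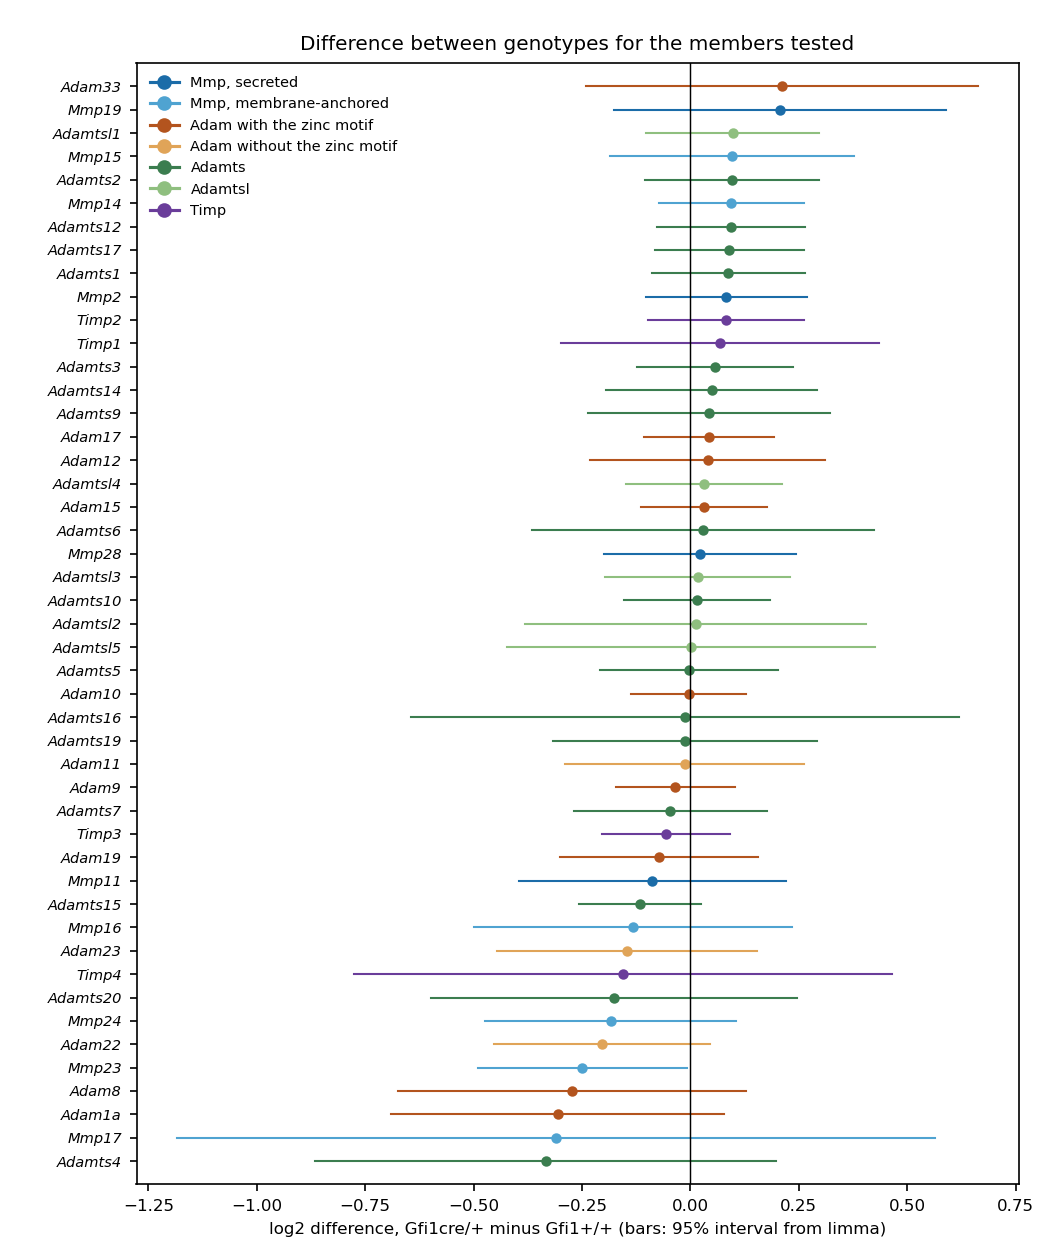
Log2 difference in normalized reads, Gfi1cre/+ minus Gfi1+/+, for the 47 genes tested, with 95% intervals from limma (3 libraries per genotype) and colours for the families. The points run from -0.33 to 0.21, and the interval of Mmp23 is the single one that does not include 0.

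Mmp23, an MMP anchored by its propeptide and released on cleavage (chr4:155650655-155653384 in GRCm38), had 175, 199 and 197 normalized reads in Gfi1+/+ and 176, 160 and 145 in Gfi1cre/+. The means were 190 ± 13.2 and 160 ± 15.3 (SD, n = 3). Gfi1cre/+ replicate 1 lay above Gfi1+/+ replicate 1 by less than 1 normalized read, so the genotypes overlapped. The log2 difference was -0.25 (standard error 0.107, unadjusted p = 0.0442, adjusted p = 0.999, limma with Benjamini-Hochberg adjustment), and the unadjusted p ran from 0.0260 without Gfi1+/+ replicate 1 to 0.162 without Gfi1cre/+ replicate 3.

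The genotype ranges did not overlap in 1 of the 47 genes, Adam1a, against 7.52% of all genes tested. Adam1a was lower in Gfi1cre/+, as were 4.07% of all genes tested. Adam1a, a gene of the fertilin family best known from sperm, had 61.7, 62.8 and 78.1 normalized reads in Gfi1+/+ and 57.4, 54.2 and 51.0 in Gfi1cre/+ (log2 difference -0.31, standard error 0.170, limma, adjusted p = 0.999). Its value is uncertain, since in the annotation 63.7% of its exon bases also belong to Gm42878 on the same strand and 24.0% to Mapkapk5. The tested members with the largest absolute differences were Adamts4 (-0.33), Mmp17 (-0.31) and Adam1a (-0.31).

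**Figure D3:**
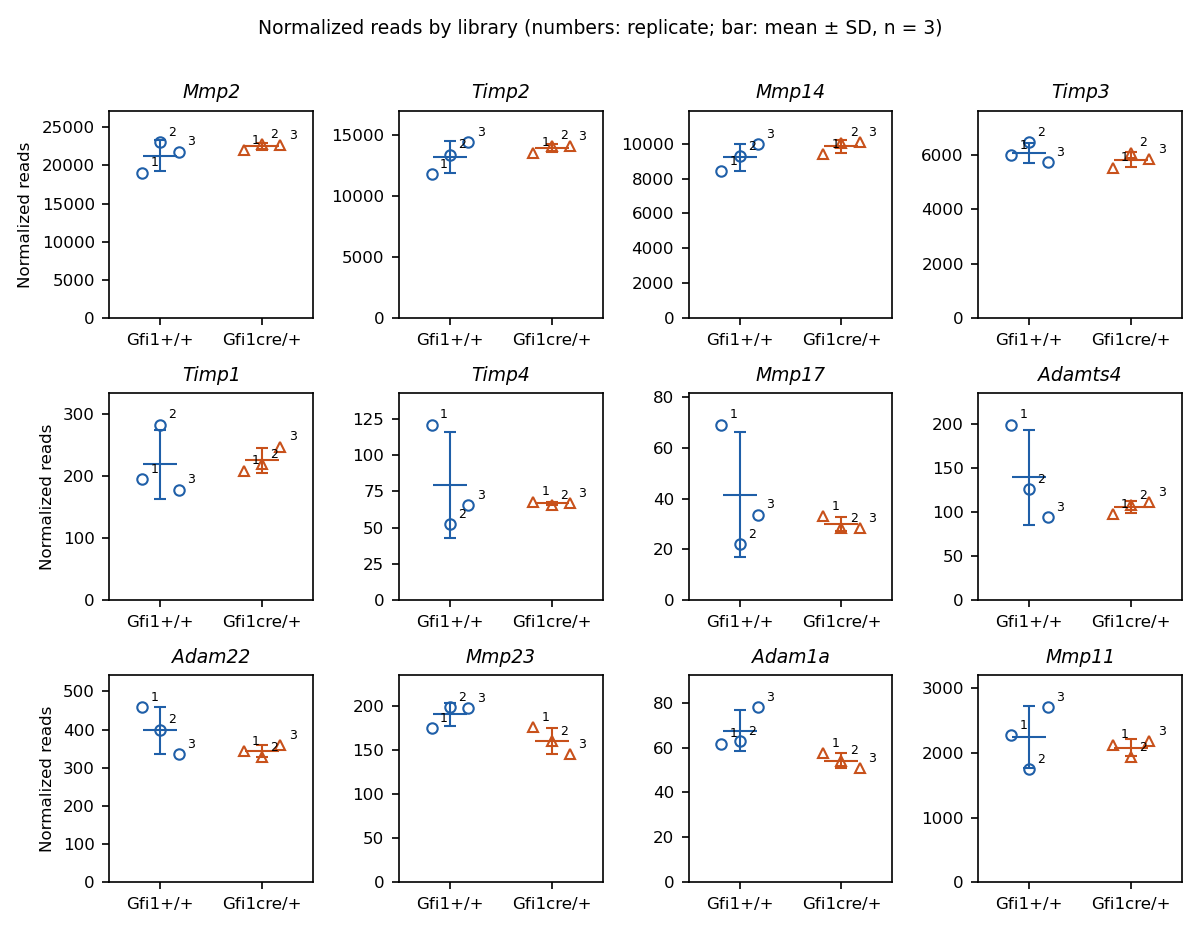
Normalized reads of 12 genes in each library from 0, with replicate numbers beside the points and bars for the mean ± SD (n = 3; circles Gfi1+/+, triangles Gfi1cre/+). Gfi1+/+ replicate 1 is highest for Timp4 (121), Mmp17 (69.1), Adamts4 (199) and Adam22 (459) and lowest for Mmp2, Timp2 and Mmp14.

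The members varied more among the Gfi1+/+ libraries than among the Gfi1cre/+ libraries. On the scale of log2(normalized reads + 1) their median SD was 0.184 in the former and 0.0891 in the latter, where all genes tested had 0.119 and 0.0737. The SD was larger in Gfi1+/+ for 38 of the 47 genes, or 80.9%, against 71.2% of all genes tested. Each Gfi1+/+ library was 1 mouse and each Gfi1cre/+ library a pool of 3. The part of pooling in this was not tested.

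Of the 47 tested genes, Mmp17, Timp4, Adamts16 and Adamts4 spread most among the Gfi1+/+ libraries, with SDs on the log2 scale of 0.813, 0.618, 0.578 and 0.541, against 0.124, 0.0236, 0.238 and 0.0983 among Gfi1cre/+. Mmp17 had 69.1, 22.0 and 33.8 normalized reads in Gfi1+/+ and 33.1, 28.4 and 28.3 in Gfi1cre/+. Adamts4, an aggrecanase that also cleaves brain proteoglycans and is known from oligodendrocytes, had 199, 126 and 93.9 in Gfi1+/+ and 97.5, 107 and 111 in Gfi1cre/+. For Mmp17, Timp4 and Adamts4, Gfi1+/+ replicate 1 was the highest library of the 6, and for Adamts16, with 69.1, 97.4 and 43.3 in Gfi1+/+, replicate 2 was highest and replicate 3 lowest.

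Gfi1+/+ replicate 1, the library with the most neuron and oligodendrocyte RNA, was the highest of the 6 libraries for 6 of the 47 genes, or 12.8% against 24.9% of all genes tested, and the lowest for 18, or 38.3% against 23.5%. The 6 were Adam22, Adamts4, Adamts6, Mmp17, Mmp24 and Timp4. Among substrates known from the nervous system, Ncan (neurocan, a brain proteoglycan) had 925 normalized reads there and 64.3 to 142 elsewhere, and L1cam had 270.3 and 63.5 to 120.4. Others were not highest there, with Bcan (brevican) at 2269.95 against 2099 to 3109 elsewhere, and App and Cdh2 lowest in that library. Ncan, L1cam, Bcan, App and Cdh2 were chosen as examples after their values were seen, from a list of 49 genes tested of which 4 were highest and 19 lowest in that library. The part of these cells in the values of the 6 genes was not tested. These 6 genes were picked because Gfi1+/+ replicate 1 was their highest library, so leaving it out raises their differences by construction. Without this library the log2 difference was -0.05 for Adamts4, -0.10 for Adam22 and -0.11 for Mmp24. It was 0.15 for Adamts6, up from 0.03 with the library, and 0.19 for Timp4, whose sign turned from -0.16. Mmp17 no longer passed the minimum of 40 normalized reads. By the same construction, differences fall for the 18 genes where this library was lowest. Among these, the difference went from 0.083 to 0.005 for Mmp2, from 0.081 to 0.003 for Timp2 and from 0.094 to 0.030 for Mmp14.

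**Figure D4:**
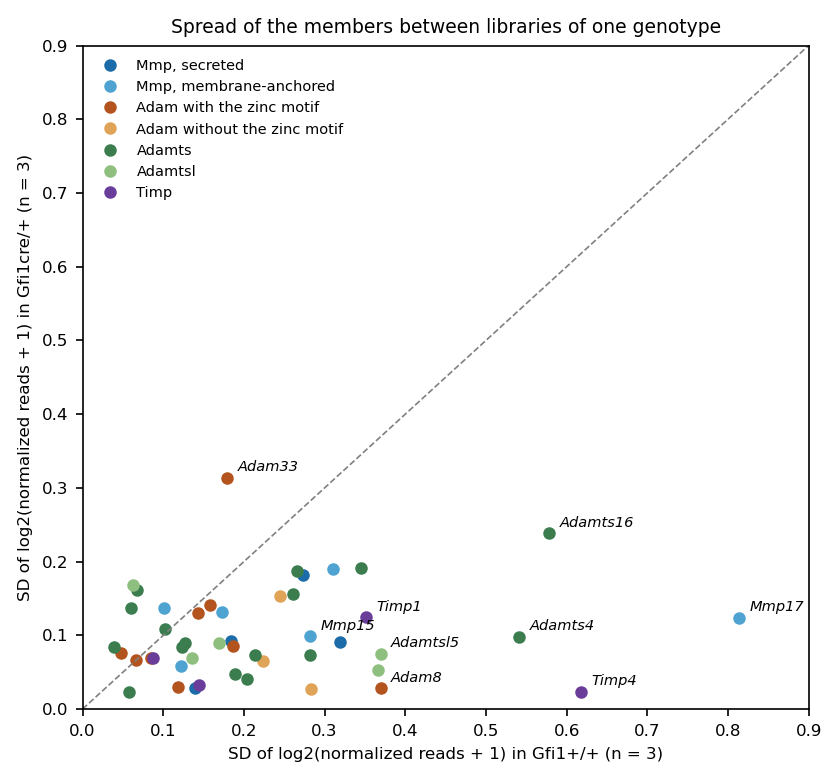
SD of log2(normalized reads + 1) among the 3 Gfi1+/+ libraries (horizontal axis) against that among the 3 Gfi1cre/+ libraries (vertical axis) for the 47 genes tested, with the dashed line at equality. Of the points, 38 lie below the line, with Mmp17, Timp4, Adamts16 and Adamts4 farthest to the right.

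Replicate 1 was not the only Gfi1+/+ library out of line. Each library was set against the mean of the other 2 of its genotype, on the log2 scale. The median absolute deviation of the 47 genes was 0.180, 0.120 and 0.226 in Gfi1+/+ replicates 1, 2 and 3. Over all genes tested it was 0.119, 0.0960 and 0.146. An absolute deviation of at least 0.502, that of Adamtsl2 in replicate 3, was reached by 4, 8 and 6 of the 47 genes. Timp1 was highest in Gfi1+/+ replicate 2, and Adam8, a protease of myeloid cells and osteoclasts, had 123, 93.2 and 156 normalized reads in Gfi1+/+ and 103, 99.4 and 99.1 in Gfi1cre/+. The neutrophil and granulocyte markers were summed at 61.7 to 271 normalized reads in Gfi1+/+ and 236 to 460 in Gfi1cre/+, with 6 of 8 listed, and the log2 difference of Adam8 was -0.27. The part of these cells in the values of Adam8 was not tested. The macrophage markers were summed at 4099 to 4680 in Gfi1+/+ and 4098 to 4441 in Gfi1cre/+.

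Genes that act on these proteases or are cut by them were taken from a list of 53, of which 49 were listed and tested. None had an adjusted p-value under 0.05 and 0 had an unadjusted p-value under 0.05 in limma, against 3.04% of all genes tested, while edgeR gave 3 and DESeq2 2 at an unadjusted p-value under 0.05. The median log2 difference was 0.05, with 34 genes positive and 15 negative, beside -0.0001 over all genes tested. In 5 genes every Gfi1cre/+ library was above every Gfi1+/+ library, against 3.45% of all genes tested in that direction. These were A2m, a plasma inhibitor that traps proteases of many classes, with 4235, 4028 and 4240 normalized reads in Gfi1+/+ and 4613, 4363 and 4469 in Gfi1cre/+, and Tspan14, Tspan33, Hbegf and Serpine2, with log2 differences of 0.07, 0.46, 0.16 and 0.07. TSPAN14 and TSPAN33 are tetraspanins that escort ADAM10 to the membrane, and Tspan33, which erythroid cells also express, had 138 normalized reads in Gfi1cre/+ replicate 1 and 65.4 to 77.2 in the other 5 libraries. The 4 erythroid markers were summed at 393 to 635 in Gfi1+/+ and 692 to 1742 in Gfi1cre/+, with 1742 in Gfi1cre/+ replicate 1, so their genotype ranges were apart in the same direction as these 5 genes. All 4 had an unadjusted p-value under 0.05 in limma and 0 an adjusted one. Within Gfi1cre/+, replicate 1 was the highest library for A2m and Tspan33, but not for Tspan14, Serpine2 or Hbegf. In replicates 1 to 3 of Gfi1cre/+, Tspan14 had 3335, 3392 and 3457 normalized reads and Serpine2 7988, 7984 and 8203. Hbegf had 223, 244 and 214. The part of erythroid cells in the values of the 5 genes was not tested.

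The activators differed widely in level. Plau, which encodes urokinase, an activator of plasminogen, was at 28.7 normalized reads per kilobase and the convertase gene Pcsk5 at 55.3, both below the median of 106 of listed genes, whereas Pcsk6 was at 950.3 and Furin at 604. Furin, the convertase that removes the propeptides of MMP11, MMP14 and ADAMs, had 4936, 5102 and 6442 normalized reads in Gfi1+/+ and 5460, 5457 and 5853 in Gfi1cre/+. Reck, which encodes an inhibitor of MMPs anchored to the membrane, had 911, 993 and 1115 in Gfi1+/+ and 981, 1061 and 1044 in Gfi1cre/+. Bsg, which encodes basigin, an inducer of MMPs on the cell surface, was the highest gene of the list at 16151 normalized reads per kilobase. Among proteoglycan substrates, Acan (aggrecan) had 1091 to 1719 normalized reads, and Vcan (versican) had 156 to 233.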

How the data were processed

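Cochlear duct RNA was measured in 3 libraries of each genotype. The authors prepared polyA libraries, aligned reads to mm10 with TopHat, counted uniquely mapped reads on genes with HTSeq and set a 40-read minimum for expressed genes, and versions and strand setting are not given in the sources used here. The deposited values are a signal per gene and library that the methods call quantile-normalized, but each is a whole read count divided by 1 size factor per library, with 100% of values whole within 0.0051. Each column was assigned through its genotype and number. limma 3.58.1 (R 4.3.3) modelled log2(value + 1) by genotype alone, with a trend and a two-sided test. A difference on this scale understates the change of low genes. edgeR 4.0.16 and DESeq2 1.42.0 on the recovered reads, which called 4 and 10 genes of the whole table after adjustment, were alternatives, as were other pseudocounts and minima, no trend, quantile normalization, a replicate block and each library left out. Exon lengths and positions came from GENCODE M21, to which 14796 of 14865 identifiers matched, and windows around starts from RefSeq. The methods describe independent biological triplicates, but no source says that libraries of 1 genotype came from separate litters. The p-values therefore measure the spread between these samples. limma fitted a common variance per gene to both genotypes, so p-values and intervals mix spread between single mice with spread between pools. Named members were the TIMPs, the 4 highest per kilobase of each family, those with an unadjusted p-value under 0.05 or with genotype ranges apart, the 3 with the largest differences and those below the minimum, and further members are named as examples chosen after their values were seen. The members and lists were chosen with earlier results of these data known.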

Additional observations from a re-analysis of the deposited data

How the results depend on the processing

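No member and no gene of the list of activators and substrates had an adjusted p-value under 0.05 under any of the 15 alternatives. The median member difference, 0.01, stayed between -0.0328 and 0.0370 throughout. The 1 member at an unadjusted p-value under 0.05 became 2 without a trend and 0 with quantile normalization, DESeq2 or the replicate block, and 0 to 10 with single libraries left out. The 10 arose without Gfi1+/+ replicate 3, where 16.2% of all genes tested passed, and 4 arose without Gfi1+/+ replicate 2. The 0 genes of the list became 3 with edgeR, 2 with DESeq2, 1 with quantile normalization, 2 with the replicate block, and 0 to 14 with single libraries left out, 14 without Gfi1+/+ replicate 3. The 4 genes called among all genes, on chromosome Y, became 10 with DESeq2 and 0 to 48 with single libraries left out, 48 without Gfi1+/+ replicate 3, 8 without Gfi1+/+ replicate 2 and 0 without Gfi1cre/+ replicate 2 or 3.

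Of the 30 tested members that met the naming rule, 17 kept the sign of their difference in every setting. Members named only as examples are outside this count. Of these, Adam12, Adam19, Adamts5, Adamts6, Adamts9, Adamts14, Adamts16 and Adamtsl2 also reversed in some setting. Adam8, Adam33, Adamts3, Adamts15 and Mmp16 did not. Adamtsl5, at 0.002, turned to -0.0336 with DESeq2, -0.0330 with edgeR and -0.000962 with a pseudocount of 10. With single libraries left out, the differences of the rest of the 30 reversed within these ranges. They ran for Adam10 from -0.0328 to 0.0386, for Adam11 from -0.116 to 0.148, for Adam15 from -0.0178 to 0.0661, for Adam17 from -0.0220 to 0.0934, for Adam9 from -0.0620 to 0.00247, for Adamts10 from -0.0472 to 0.0758, for Adamtsl3 from -0.0752 to 0.0899, for Adamtsl4 from -0.0310 to 0.103, for Adamtsl5 from -0.181 to 0.188, for Mmp11 from -0.257 to 0.0599, for Mmp28 from -0.0599 to 0.121, for Timp1 from -0.0643 to 0.267 and for Timp4 from -0.407 to 0.189.

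The libraries of the same replicate number did not deviate together, with correlations of -0.0944, 0.107 and -0.0326 for replicates 1, 2 and 3, so the numbers were not taken as pairs. The cause of these changes was not tested. Depth limits the low genes, since Mmp25 rests on as few as 11 reads in a library and Mmp17 on 21.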
